A study of Mus musculus with 2 samples.

Results

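The genes described here encode the 4 alpha-actinins, Actn1, Actn2, Actn3 and Actn4, and 6 of their partners at the sarcomeric Z-disc, the myozenins Myoz1, Myoz2 and Myoz3, myotilin (Myot), the PDZ and LIM protein Ldb3 (also called Cypher or ZASP) and telethonin (Tcap). All probe sets whose single gene symbol in the platform annotation was 1 of these 10 were taken, which gave 16 of the 45037 non-control probe sets and 10 of the 18193 named genes on the array. Their MAS5 signals were compared between 2 Affymetrix arrays, each hybridized with biotin-labelled cRNA made from 6 µg of total RNA of mouse esophagus at E18.5, shortly before birth. One array was from wild-type BALB/c tissue. The other was from tissue whose labels give BALB/c with both Myf5 and Myod null, that is Myf5-/-:MyoD-/-. The labels name no promoter, Cre or transgene for either array, and the number of embryos pooled for an RNA sample is not among them.

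The Z-disc is the boundary at which the thin filaments of neighbouring sarcomeres are anchored, and alpha-actinin is the antiparallel dimer that crosslinks them there. Actn2 and Actn3 are the isoforms of striated muscle, Actn3 being restricted to fast fibers, whereas Actn1 and Actn4 serve focal adhesions, stress fibers and the dense bodies of smooth muscle. Myozenins, also called calsarcins, bind alpha-actinin and the phosphatase calcineurin, and telethonin caps the ends of a pair of titin molecules. The mouse esophagus begins with smooth muscle and later gains a striated layer, and Myf5 and Myod1 encode transcription factors that commit cells to that striated lineage.

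With 1 array per genotype there was no replicate and no test, and the number of arrays limits the precision, so every difference below is between 2 RNA samples. Signals below 489, the middle value over both arrays without controls, were raised to that limit before ratios were taken. Of the non-control probe sets, 44.6% in wild-type and 55.4% in null-labelled tissue lay at or above it. Their median signals were 393 and 581. The part of this shift in the ratios of dim probe sets was not tested. A ratio with 1 array under the limit is a bound, written "at least N-fold", and a probe set under it on both arrays was not measured. The only yardstick of error in the table is how far probe sets of 1 gene disagree, an SD of 0.56 in log2 ratio, which says nothing of the spread between animals or arrays. Where a pair of signals is given, wild type stands first. Myf5 read 4072 and 496, while the brighter Myod1 probe set read 2001 and 1698. The labels do not place these probe sets relative to the deleted sequence, so the second array is called by its label, the null-labelled array. Control signal was stronger at the 3' than the 5' end of beta-actin by 12.6-fold and 14.2-fold, and of Gapdh by 10.5-fold and 6.96-fold, and the part of this in the ratios was not tested. In bulk tissue, fewer cells of a type and less RNA per cell cannot be told apart.

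Of the 10 genes, 9 were measured. Counted by the brightest probe set of each gene, 6 lay 2-fold or more below their wild-type signal on the null-labelled array and 0 lay as far above it. The 6 were Actn2, Actn3, Myoz1, Myoz2, Myot and Ldb3. Across the 13315 measured genes, the share 2-fold or more below was 5.36% and the share above 6.01%. Scaling moved this background, to 938 genes lower and 449 higher with loess and to 804 and 546 with quantile normalization, from 714 and 800. The members Actn2, Myot and Myoz2 were at least 16-fold lower, as were 0.188% of all measured genes. The median log2 ratio was -1.99 over the 9 members and 0.086 over all measured genes. By probe set, 7 of the 13 measured lay 2-fold or more below and 1 above, against 4.94% and 5.94% of the named probe sets measured.

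**Figure D1:**
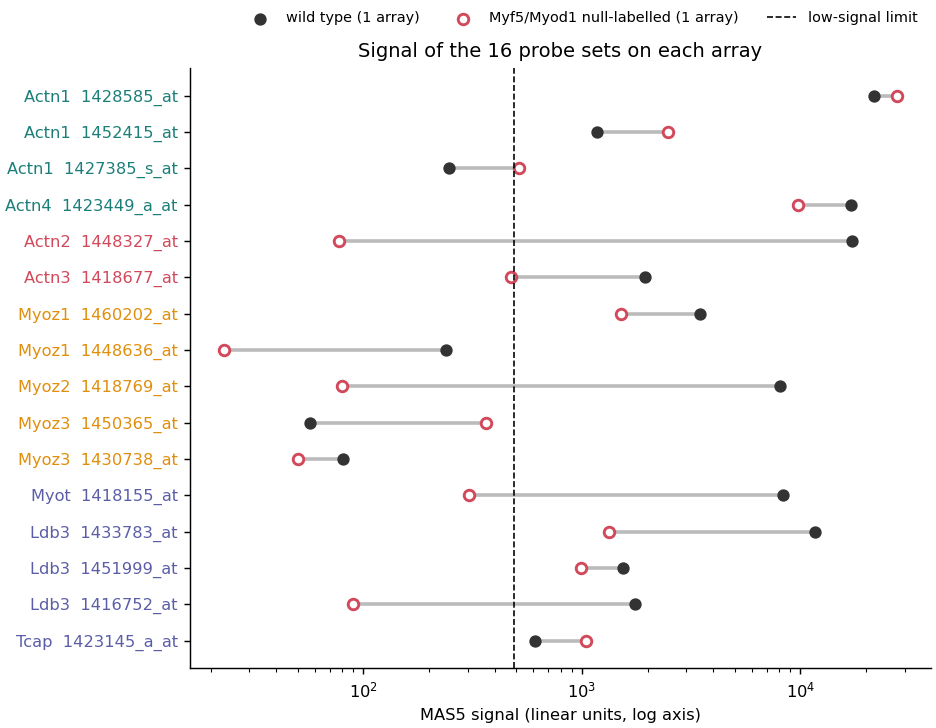
MAS5 signal (log axis) of the 16 probe sets in wild-type (filled) and null-labelled tissue (open), 1 array each, with the low-signal limit of 489 as a dashed line and label colours for nonmuscle alpha-actinins (green), muscle alpha-actinins (red), myozenins (orange) and other partners (blue). Actn2, Myoz2 and Myot are far above the limit in wild-type and below it in null-labelled tissue, while all 3 Actn1 probe sets and Tcap read higher in the latter.

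The muscle alpha-actinins were examined first. Actn2, the alpha-actinin of all striated fibers, has 1 probe set (1448327_at), which read 17201 in wild-type and 77.5 in null-labelled tissue. It was therefore at least 35.2-fold lower, with a log2 bound of -5.14. Actn3, the fast-fiber isoform, read 1944 and 473 at its single probe set (1418677_at), at least 3.97-fold lower. Its null-labelled signal lay just under the limit, so the bound is close to the uncapped log2 ratio of -2.04. Both striated isoforms were thus below the limit in the null-labelled tissue, from wild-type signals above it.

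The nonmuscle alpha-actinins did not share this pattern. Actn1, the isoform of adhesions and smooth muscle dense bodies, read 21668 and 27672 at its brightest probe set (1428585_at), 1.28-fold higher in null-labelled tissue and within 1 SD of the spread between probe sets. A dimmer one read 1176 and 2480, which is 2.11-fold higher, and the dimmest 247 and 515, with a log2 bound of 0.075. All 3 Actn1 probe sets thus read higher, by unequal amounts. Actn4, the isoform linked to cell motility and to the kidney filter, read 17120 and 9766 (1423449_a_at), 1.75-fold lower and short of 2-fold. Among the 10346 genes measured on both arrays, 73.5% had a log2 ratio at or below that of Actn1 and 7.76% at or below that of Actn4.

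A difference between the log2 ratios of 2 genes does not depend on how an array was scaled as a whole, although a bound still depends on the limit. The log2 ratio of Actn2 was lower than that of Actn1 by at least 5.49 and than that of Actn4 by at least 4.33. For Actn3 against Actn1 this difference was at least 2.34. Within the nonmuscle pair, Actn4 lay lower than Actn1 by 1.16. The SD of 0.56 is that of single probe sets of 1 gene, and a difference between 2 probe sets spreads more widely.

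Promoter sequences of Actn2 and Actn1 are shown because their log2 ratios lay furthest apart within the family. They are the 250 bases before the annotated start, from RefSeq (GRCm38.p6). Windows were taken for 5 of the 10 members, Actn1, Actn2, Actn4, Ldb3 and Myoz2. Members on a chromosome left out of this selection were not searched, so an absent member may still have an annotated promoter. The shares over all promoters below were not filtered in this way. The search covered 3 motifs on both strands: the E-box CAGNTG, to which MyoD-family factors bind, the MEF2 motif, and the CArG box of serum response factor. Capitals mark a match. Of 32851 RefSeq promoters of the same length, 44.8% held the E-box, 2.92% the MEF2 motif and 1.47% the CArG box. The Actn2 window (chr13:12340733-12340982, minus strand) and the Actn1 window (chr12:80260364-80260613, minus strand) held none of the 3, so both are printed without capitals. A missing match says only that these letters are not in this window.
Actn2: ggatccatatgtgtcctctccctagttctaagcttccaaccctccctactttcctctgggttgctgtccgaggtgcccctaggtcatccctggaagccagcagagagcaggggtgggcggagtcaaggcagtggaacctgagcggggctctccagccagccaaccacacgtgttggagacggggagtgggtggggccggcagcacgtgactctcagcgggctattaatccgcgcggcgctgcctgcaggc
Actn1: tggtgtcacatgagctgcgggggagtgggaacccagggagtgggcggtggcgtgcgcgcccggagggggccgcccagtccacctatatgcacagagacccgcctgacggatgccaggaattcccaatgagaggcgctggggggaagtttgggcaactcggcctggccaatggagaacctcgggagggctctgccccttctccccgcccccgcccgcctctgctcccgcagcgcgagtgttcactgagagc

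The Actn2 window was 63.2% G and C and the Actn1 window 68.4%, both above the median of 52.4% over all promoters. The Actn4 window held 1 E-box, CAGGTG, 37 to 32 bases before the start, in 67.6% G and C.

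The myozenins each gave a different reading. Myoz2 (calsarcin-1), the isoform of heart and slow fibers, read 8104 and 79.9 (1418769_at), at least 16.6-fold lower. Myoz1 (calsarcin-2), the fast-fiber isoform, read 3475 and 1504 at its brighter probe set (1460202_at), 2.31-fold lower, and remained above the limit on both arrays. Its second probe set read 238 and 23.0, below the limit on both. Myoz3 was not measured: its probe sets read 57.2 and 363, and 81.0 and 50.1. The log2 ratio of Myoz2 lay below that of Myoz1 by at least 2.84. Of the genes measured on both arrays, 3.24% had a ratio at or below that of Myoz1.

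The Myoz2 promoter is shown because, among the member windows searched, it was the 1 with more than 1 kind of match. It spans chr3:123034988-123035237 on the minus strand (GRCm38.p6) and has 40.8% G and C. Capitals mark a MEF2 match, CTATATATAG, 33 to 24 bases before the start, and 2 E-boxes, CAGTTG at 22 to 17 and CAGCTG at 12 to 7 bases before it. None of these 3 matches overlap. At least 2 E-boxes were present in 13.2% of all promoters.
Myoz2: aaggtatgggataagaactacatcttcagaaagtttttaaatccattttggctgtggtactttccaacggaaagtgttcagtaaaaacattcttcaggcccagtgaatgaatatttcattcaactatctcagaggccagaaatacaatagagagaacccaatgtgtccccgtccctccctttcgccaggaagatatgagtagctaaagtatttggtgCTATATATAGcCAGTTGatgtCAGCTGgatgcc

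The other 3 partners were split. Myot, which encodes the alpha-actinin and filamin binding protein myotilin, read 8318 and 304 (1418155_at), at least 17.0-fold lower. Ldb3, whose PDZ domain binds alpha-actinin, has 3 probe sets. The brightest (1433783_at) read 11710 and 1325, 8.84-fold lower, and only 31 of the 10346 genes measured on both arrays had a log2 ratio at or below its value, Ldb3 included. A second (1416752_at) read 1754 and 89.6, at least 3.59-fold lower, and the remaining one (1451999_at) 1550 and 996, 1.56-fold lower. All 3 Ldb3 probe sets read lower, with log2 ratios of -3.14, -1.84 (a bound) and -0.64. The annotation used here does not say which Ldb3 transcripts each probe set reads.

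Tcap was the exception among the partners measured. Telethonin is a small protein of striated muscle, and its single probe set (1423145_a_at) read 613 in wild-type and 1044 in null-labelled tissue, 1.70-fold higher and short of 2-fold. Its wild-type signal lay close to the limit, where signals ran higher on the null-labelled array, and with loess scaling its log2 ratio was 0.41. Of the genes measured on both arrays, 9.16% had a ratio at or above that of Tcap. Its log2 ratio of 0.77 exceeded that of Ldb3 by 3.91 and that of Myot by at least 4.86.

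The Ldb3 promoter is shown for its CArG box, CCATTTATGG in capitals, 35 to 26 bases before the annotated start. The window is chr14:34588682-34588931 on the minus strand (GRCm38.p6). A second annotated start gives an overlapping window, chr14:34588608-34588857, in which the same box lies 109 to 100 bases before the start. Neither window held an E-box or MEF2 match.
Ldb3: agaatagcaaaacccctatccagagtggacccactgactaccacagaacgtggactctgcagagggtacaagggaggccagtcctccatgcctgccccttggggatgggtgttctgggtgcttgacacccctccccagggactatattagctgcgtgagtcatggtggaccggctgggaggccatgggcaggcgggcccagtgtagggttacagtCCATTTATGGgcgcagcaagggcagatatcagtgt

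**Figure D2:**
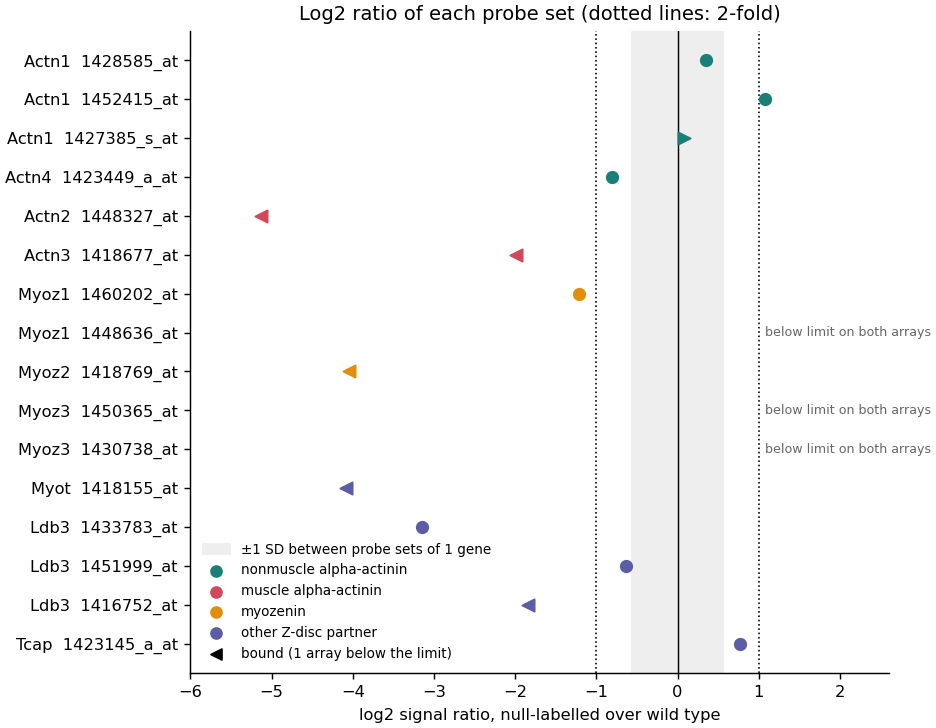
Log2 ratio of null-labelled to wild-type signal for each probe set, with triangles for bounds, dotted lines at 2-fold and a grey band of ±0.56, the SD between probe sets of 1 gene. Actn2, Myoz2, Myot and the brightest Ldb3 probe set lie below -3, and the 3 Actn1 probe sets and Tcap lie above 0.

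Other genes of the Z-disc were followed in a fixed list of 34, of which 29 were measured. Counted by the brightest probe set of each, 12 lay 2-fold or more below their wild-type signal and 0 above. The shares of all measured genes were 5.36% and 6.01%. The median log2 ratio of the 29 was -0.64, beside 0.086 for all measured genes. The giant spring protein gene Ttn, which spans from Z-disc to M-band and whose end telethonin caps, read 55591 and 528, 105-fold lower at its brightest probe set. Its second read 21677 and 49.7, at least 44.3-fold lower, and dimmer ones gave bounds of 3.65-fold and 3.61-fold lower or were not measured. Csrp3, the muscle LIM protein, read 12481 and 584, 21.4-fold lower. Synpo2l, a synaptopodin-like actin-binding protein, read 12028 and 652 at its brightest probe set, 18.4-fold lower. Its other probe sets read 3366 and 673, 1320 and 522 (2.53-fold lower) and 414 and 695 (at least 1.42-fold higher). Smpx, a small muscle protein, read 7773 and 522, 14.9-fold lower. Pdlim5, an Ldb3 relative chosen after its values were seen, depended on the probe set. Its brightest read 31119 and 31273, whereas its second read 11181 and 959, 11.7-fold lower. Dimmer probe sets of the list passed 2-fold in both directions, with a Palld probe set at 418 and 1019, at least 2.08-fold higher.

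Calcineurin and NFAT genes, the signalling pathway that myozenins bind, were all measured. The median log2 ratio of the 10 was -0.20. At the brightest probe set of each, 0 of the 10 read 2-fold apart, beside 5.36% lower and 6.01% higher among all measured genes. Dimmer probe sets did in places: 1 of Nfatc2 read 1323 and 200, at least 2.70-fold lower, and 1 of Nfatc1 read 322 and 997, at least 2.04-fold higher. The most different were the transcription factor genes Nfatc1 (876 and 1324, 1.51-fold higher) and Nfatc3 (5473 and 3790, 1.44-fold lower). They were followed by the calcineurin inhibitor Rcan1, 1.39-fold lower, and the catalytic subunit Ppp3cb, 1.21-fold lower.

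Genes of adhesions and stress fibers, the structures that hold Actn1 and Actn4, were counted by their brightest probe sets. Of the 18 measured, 1 passed 2-fold on the lower side and 0 on the higher side. Over all measured genes, 5.36% passed on the lower side and 6.01% on the higher, so the lower count was near that share. The median log2 ratio of the 18 was -0.059. The lower gene was the integrin-linked kinase Ilk, 6813 and 3343, 2.04-fold lower, and it was no longer 2-fold lower with quantile or loess scaling. Vinculin, Vcl, which binds alpha-actinin at adhesions, read 32118 and 50737, 1.58-fold higher. The integrin subunit Itgb1 and the actin regulator Vasp were higher by 1.52-fold and 1.40-fold, each at the brightest probe set. Dimmer probe sets of Itgb1 (253 and 1280, at least 2.62-fold) and Fermt2 (472 and 1569, at least 3.21-fold) did pass 2-fold higher. No dimmer probe set of the list was 2-fold lower.

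**Figure D3:**
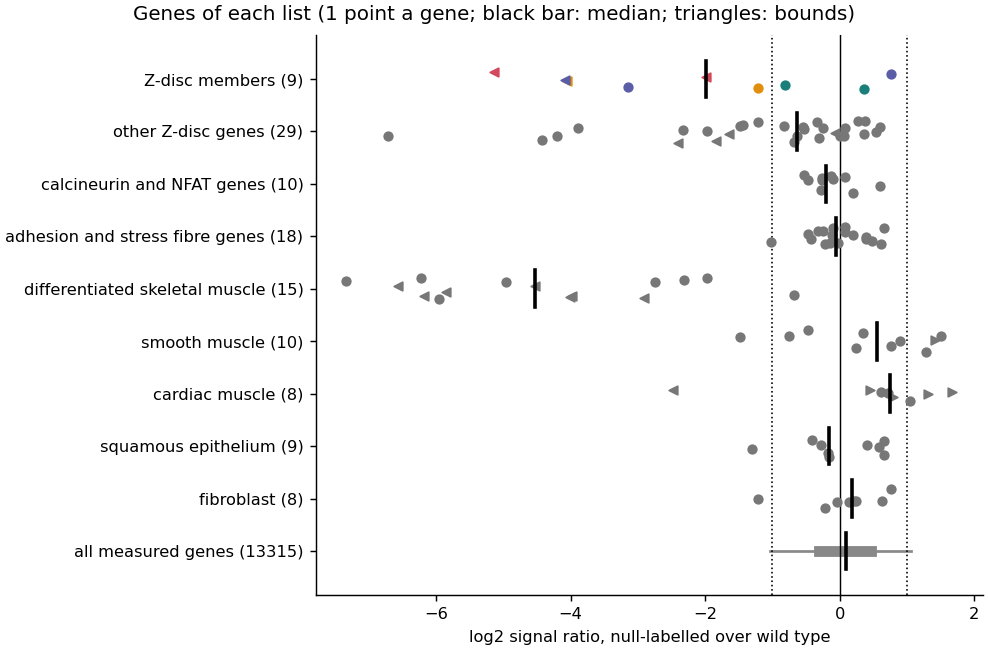
Log2 ratio of null-labelled to wild-type signal for each measured gene of the members and fixed lists, without the endothelial and white blood cell markers. Each gene is 1 point at its brightest probe set, with triangles for bounds, black bars for medians and the number of measured genes in parentheses. The bottom row gives the median (bar), the quartiles (thick line) and the 5th to 95th percentiles (thin line) of the 13315 measured genes. The Z-disc members spread from -5.14 to 0.77, the skeletal muscle markers lie furthest to the left, and the calcineurin and adhesion genes lie around 0.

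Cell type markers were read beside these results. Over all measured genes, 5.36% read at least 2-fold lower and 6.01% higher. Of 15 markers of differentiated skeletal muscle, 14 read at least 2-fold lower, with a summed signal of 386361 and 14377. Of 10 smooth muscle markers, 1 read at least 2-fold lower and 3 higher, with a median log2 ratio of 0.55. The lower marker was Des (3066 and 1094), which is also counted among the other Z-disc genes above. Its dimmer probe set read 447 and 870. The 10 markers had a sum of 326992 and 657635. Mylk (115515 and 326483) and Acta2 (131127 and 242976) made up most of that sum, and the other 8 markers summed to 80350 and 88176. Other Mylk probe sets read 5918 and 6274, and 552 and 1999. Heart also makes Actn2, Myoz2, Ldb3 and Tcap. Of 10 cardiac markers, 8 were measured, 1 read at least 2-fold lower (Myl3, which slow fibers share) and 3 higher, with a sum of 5620 and 7314 and a median log2 ratio of 0.75. The brightest Myl3 probe set read 2714 and 26.7, at least 5.55-fold lower. Of the other Myl3 probe sets, 1 read 2239 and 380 (at least 4.58-fold lower) and 1 read 1001 and 1343 (1.34-fold higher). The higher genes were Tbx5 (113 and 1558) and Ryr2 (435 and 1210), each below the limit in wild type, and Nkx2-5 (630 and 1296). Of the 8 cardiac markers measured, 4 were below the limit in wild type. Near the limit, signals ran higher on the null-labelled array, and the part of this in the cardiac values was not tested. Myl2 (583 and 890) and Mybpc3 (500 and 818) were above the limit on both arrays, and Nppa (380 and 366) and Tnni3 (39.4 and 31.3) were below it on both. Esophageal squamous markers were present, with 9 of 10 measured, 1 of them lower and 0 higher, and sums of 428556 and 516540. The largest part of these sums was 1 Krt4 probe set (173385 and 259124), and the other Krt4 probe set read 84832.5 and 71386. Of 8 fibroblast markers 1 was lower, of 5 measured endothelial markers 1 was higher, and of 5 white blood cell markers 1 was lower and 2 were higher. Among the latter, the leukocyte surface gene Ptprc read 585 and 5010, and its log2 ratio of 3.10 was the highest of all measured genes with the limit applied; its other probe set was below the limit on both arrays. The part of any of these cell types in the members' values was not tested.

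Position in the genome was compared last, from the RefSeq gene order of GRCm38.p6. Each myozenin gene has a synaptopodin gene as its nearest protein-coding neighbour on 1 side, Synpo2l beside Myoz1, Synpo2 beside Myoz2 and Synpo beside Myoz3. These neighbours did not follow 1 direction. Beside Myoz1, Synpo2l was 18.4-fold lower at the probe set given above. Beside Myoz2, Synpo2 read 18138 and 27354, and was thus 1.51-fold higher where it was brightest, while another of its probe sets read 3527 and 1342, 2.63-fold lower. Beside Myoz3, Synpo read 1619 and 1594. Over all members, 17 of 20 nearest neighbours were measured, and 2 read at least 2-fold lower and 2 higher, with a median log2 ratio of -0.40. Over all measured genes the shares were 5.36% lower and 6.01% higher, and the median was 0.086. The second lower neighbour was Stard3, 2405 and 1054, 2.28-fold lower, which lies 2.70 kb from Tcap, the partner that read higher. The higher neighbours were Capn12 beside Actn4 (504 and 1616, 3.21-fold) and Usp53 beside Myoz2 (3606 and 7259, 2.01-fold).

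**Figure D4:**
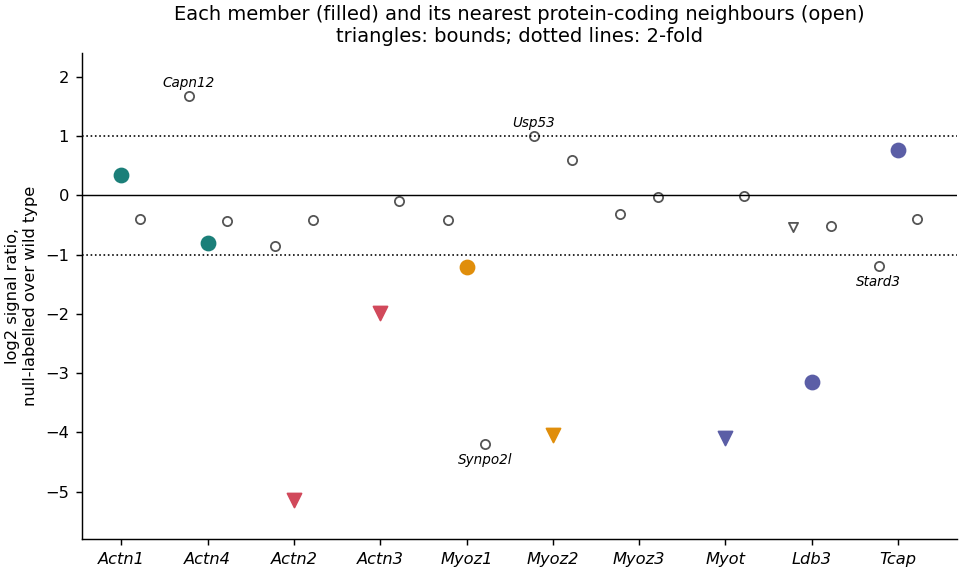
Log2 ratio of null-labelled to wild-type signal for each member (filled, coloured by subgroup) and for its nearest measured protein-coding neighbours (open), with triangles for bounds, dotted lines at 2-fold and names for neighbours at least 2-fold apart; Myoz3 itself was not measured. Next to Actn2 (-5.14 or beyond), the neighbours lie between -0.85 and -0.42, and Synpo2l beside Myoz1 is the 1 neighbour below -2.

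The direction of each measured member was the same wherever it had a value under 8 alternative settings. Actn2, Myoz1, Myoz2, Myot and Ldb3 read at least 2-fold lower in all 9 settings, the reported one included. Actn3 did so in 8 and was lower by at least 1.39-fold where the limit was the 75th percentile. Actn1 and Actn4 stayed within 2-fold in all 9, from 1.20-fold to 1.36-fold higher and from 1.58-fold to 1.86-fold lower. Tcap read 1.32-fold to 1.70-fold higher in the 8 settings that gave it a value. The size for Actn2 is set by the limit, with log2 values from -3.62 for the highest limit tried to -7.52 without any.

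**Figure D5:**
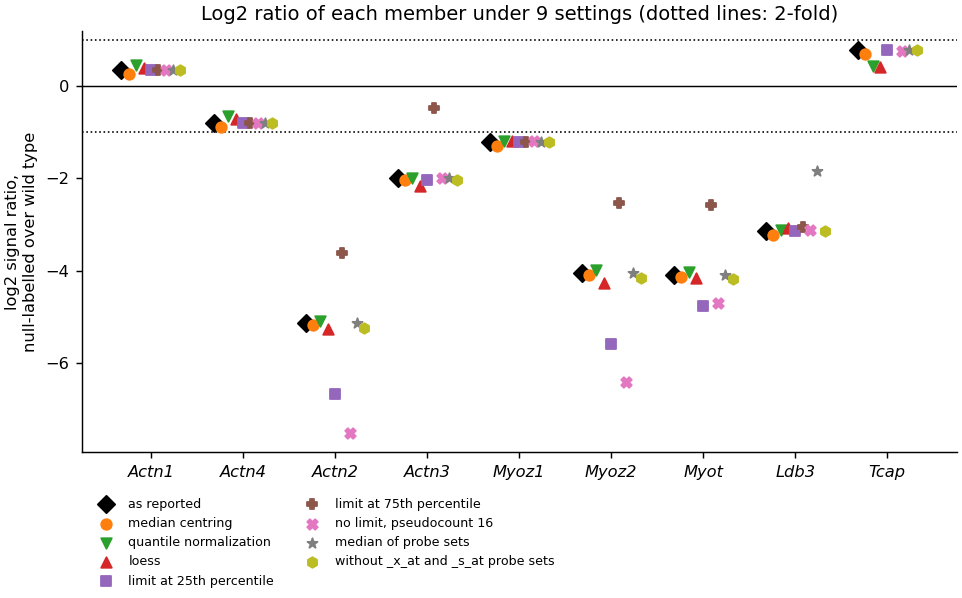
Log2 ratio of null-labelled to wild-type signal for the 9 measured members as reported and under 8 alternative settings of scaling, low-signal limit and probe set choice, with dotted lines at 2-fold. Actn1, Actn4, Myoz1 and Tcap move little, whereas the bounds of Actn2, Myoz2 and Myot follow the limit and Ldb3 moves to -1.84 with the median of its probe sets.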

How the data were processed

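The deposited table holds 1 signal intensity per probe set and array on a linear scale, computed by the authors using MAS5 per the submitters' processing notes, which give no version. Both arrays had a mean of 1500 after trimming 2% from each end, and no detection calls were used here. Of 45101 probe sets, 64 are controls. Genes were named from the platform annotation in GEO, updated by Entrez ID through RefSeq GRCm38.p6: 34945 probe sets had 1 symbol, 932 several and 9160 none. No probe set with several symbols named a member.

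A gene took its probe set of highest mean signal. The low-signal limit, the 50th percentile of both arrays, stands in for detection. Genes were counted at 2-fold, with no test. The text names all members and the 4 largest log2 ratios of each list other than the marker lists. Of the nearest neighbours it names the synaptopodin genes and those at least 2-fold apart. Single marker genes, Pdlim5 and dimmer probe sets of the lists were named outside this rule, with their values known. The members and lists were chosen with earlier results of these data known. Protein sequences were not analysed here. The functions were tested on simulated data. Python 3.11.15, numpy 2.4.6, pandas 2.3.3, statsmodels 0.14.6 and matplotlib 3.10.9 were used.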

Additional observations from a re-analysis of the deposited data

How the results depend on the processing

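Scaling was varied by median centring, quantile normalization and loess with a span of 0.3. The limit was set at percentile 25 or 75 or replaced by a pseudocount of 16. Genes were also read as the median over their probe sets, without IDs ending in _x_at or _s_at, and at 4-fold. The count of members at least 2-fold lower was 5 at percentile 75 and 6 in every other setting. At a 4-fold cut, 4 members were lower, and the share of all genes at that cut was not taken. The count of members at least 2-fold higher was 1 at percentile 25 and 1 with no limit, against 0, and that gene was Myoz3, which was below the reported limit on both arrays. The SD between probe sets of 1 gene was 1.09 with no limit, against 0.56. No member's direction reversed. The 2-fold counts over all genes were 714 lower and 800 higher of 13315 measured as reported, and 938 and 449 of 13098 with loess. At percentile 25 they were 1232 and 2742 of 16539 (7.45% and 16.6%). At percentile 75 they were 383 and 148 of 7980 (4.80% and 1.85%). With no limit they were 1704 and 3548 of 18193 (9.37% and 19.5%). The number of genes measured thus changed with the limit. Apart from the limit's own construction, the cause was not tested. No paired analysis was possible because each genotype has 1 array, and no replicate could be left out. Signals under the limit give bounds only, which holds for 4 of the 9 measured members.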
